A study of Gallus gallus with 16 samples.

Results

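The 100 genes described here were those whose RNA level fell furthest below every other group in double-positive (DP) cells of the latest stage sampled, HH25, out of 24881 genes in the count table. Each gene's level was taken as log2(CPM + 1), where CPM is its count scaled to a library total of 1e6 counts, and averaged over the 2 libraries of a group. The score of a gene was the lowest of the other 7 group means minus the HH25 DP mean, and the 100 highest scores were kept, leaving out genes on chromosomes W, Z and 16 and genes spanning 300 kb or more. The genes were thus chosen by their measured levels in these same libraries, and their low level in HH25 DP cells is given as a description and carries no test.

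RNA was sequenced from cells of the vagal region of wild-type chicken embryos, sorted by the fluorescence of 2 electroporated enhancer reporters, NC2 and E2. Per the labels, E2 cells had E2 signal without NC2 signal, DP cells had both, and negative cells had neither. The 16 libraries formed 8 groups of 2, with negative and E2 cells at Hamburger-Hamilton stages HH10, HH18 and HH25 and DP cells at HH18 and HH25. Embryos of all 8 groups received both reporters, at HH4 for the HH10 groups and at HH8 or HH9 for the HH18 and HH25 groups. Stage and time of electroporation therefore changed together between HH10 and the later stages only. The first stage carries 2 names, HH10 in the records of the samples and HH12 in the table's columns and the series' own text, and is called HH10 here. The labels name the fluorescent protein citrine for both reporters, and an electroporated reporter marks only cells that took it up, so negative cells can include cells of any type that received none. Whether the pair of libraries in a group stems from different embryos is not said, and a p-value here reflects only how far such pairs differ, possibly for technical reasons.

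As background, neural crest cells emigrate from the dorsal side of the forming neural tube, and the vagal crest supplies most of the enteric nervous system and contributes cells to the outflow tract of the heart. The reporters use enhancers of transcription factor genes of the crest: NC2 belongs to FOXD3, an early crest gene, and E2 to SOX10. SOX10 stays on in crest cells that become glia or melanocytes and in enteric progenitors.

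The table identifies genes by Ensembl identifier and galGal5 exon coordinates and does not pair them with names, and 0 of its 24881 identifiers matched the reference table of chicken genes used here. No gene is therefore given a symbol, a role or a sequence, and the markers of neural crest, neurons, glia, muscle, blood and other cell types could not be read. The sorted populations were not checked against their defining markers. In such bulk samples, fewer cells of a type and less RNA per cell cannot be told apart.

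Library totals ran from 4032540 counts (HH18 negative library 2) to 45313160 counts (HH10 E2 library 3), and the HH25 DP libraries, numbered 2 and 3 in the table, held 12634040 and 37459288 counts. All 100 genes passed the filter on low counts, as did 13775 genes that were open to the rule.

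The 100 genes had a median level of 4.55 CPM in HH25 DP library 2 and 4.58 CPM in library 3. In the other 14 libraries the same median lay between 17.0 CPM (HH25 E2 library 1) and 29.6 CPM (HH18 E2 library 1). Summed over the 100 genes, the level was 1676 and 1385 CPM in the HH25 DP libraries and 3982 to 7223 CPM elsewhere. The rule chose the genes on these values, so the gap between both HH25 DP libraries and every other library follows from it. Nothing further is read from that gap. The HH18 DP libraries, which the rule also used, lay within the range of the rest at summed levels of 4025 and 4783 CPM.

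**Figure D1:**
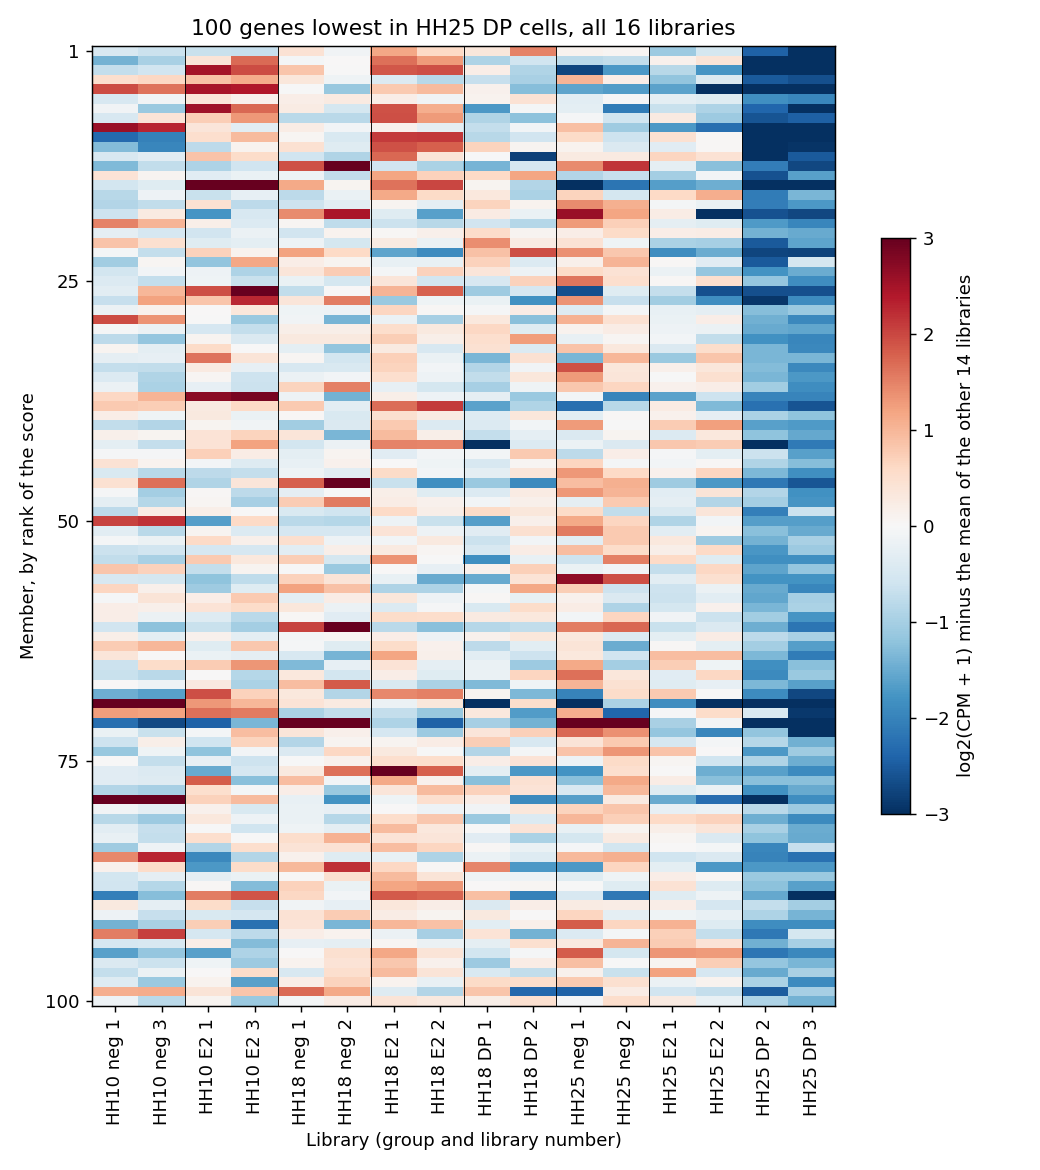
Level of each of the 100 genes (vertical axis, by rank of the score) in each of the 16 libraries (horizontal axis), as log2(CPM + 1) minus the gene's mean over the 14 libraries outside HH25 DP; red is above that mean, blue below it, and colours end at 3 and -3. The 2 HH25 DP columns at the right are blue in nearly every gene, as the rule requires, whereas no other column is blue throughout.

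The score ranged from 2.27 for the first gene to 0.6459 for the 100th, with a median of 0.82, so that the typical gene had 1.76-fold less CPM + 1 in HH25 DP cells than in the next lowest group. A score of 1 or more was reached by 23 genes, and 77 lay below it. The cutoff fell in a smooth slope of scores. The last genes inside it were ENSGALG00000031000, ENSGALG00000031496 and ENSGALG00000040258 with scores of 0.6479, 0.6462 and 0.6459, and the first outside it were ENSGALG00000040787, ENSGALG00000033322 and ENSGALG00000046656 with 0.6445, 0.6434 and 0.6421. By rule, the HH25 DP group mean was the lowest of the 8 in all 100 genes, and it was the lowest in 8.42% of the tested genes open to the rule. Membership of the list is thus a matter of degree. With HH25 DP library 2 left out, 59 of the 100 genes stayed among the 100 highest scores, and with library 3 left out 43 stayed.

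Both HH25 DP libraries lay below each of the other 14 libraries in 62 of the 100 genes, compared with 1.39% of the 13775 tested genes open to the rule; the rule used these values, and nothing is read from the contrast. In the remaining 38 genes at least 1 other library reached down to the HH25 DP level, most often HH25 negative library 1 (11 genes) and HH25 E2 library 2 (9 genes). The median difference between the 2 HH25 DP libraries was 0.43 on the log2(CPM + 1) scale, and it exceeded 1 in 12 genes. The score was larger than that difference in 84 genes. It was larger than the library differences of both HH25 DP and the next lowest group in 55 genes. In the others, the gap to the nearest group was within at least 1 of these differences.

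The group nearest to HH25 DP differed from gene to gene. HH10 negative cells were the lowest of the other 7 groups in 28 of the 100 genes, compared with 12.4% of the tested genes open to the rule, and HH25 E2 cells in 19, compared with 11.4%. HH10 E2 cells were the lowest in 16 genes, compared with 24.8%, and HH25 negative cells in 9, compared with 26.2%. The counts for HH18 negative, HH18 DP and HH18 E2 cells were 13, 10 and 5, beside 11.1%, 9.52% and 4.51%. HH18 E2 cells were the highest group in 29 genes, compared with 10.2%, HH25 negative cells in 22, compared with 21.7%, and HH25 E2 cells in 3, compared with 14.7%. These differences between the list and the table were not tested, and the score uses the lowest group. The median difference of the 100 genes between HH25 DP and another group ran from -1.31 (against HH10 negative) to -1.83 (against HH25 negative) on the log2(CPM + 1) scale. The corresponding medians over all tested genes open to the rule ran from 0.03 to 0.27, on the opposite side of 0.

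The first gene, ENSGALG00000027703 (chr19:5749443-5751959, minus strand, galGal5, with 10 exon intervals), was at 2.22 and 0.294 CPM in HH25 DP libraries 2 and 3, from 28 and 11 counts. Elsewhere it was at 11.4 and 10.1 CPM in HH10 negative, 9.83 and 9.71 in HH10 E2, 22.4 and 15.1 in HH18 negative, 37.4 and 25.2 in HH18 E2, 20.9 and 47.2 in HH18 DP, 17.5 and 16.8 in HH25 negative, and 7.08 and 10.9 in HH25 E2 cells. The HH25 DP libraries did not overlap any other, and the highest single value was an HH18 DP library. Its span overlaps that of ENSGALG00000003766 on the same strand, so that reads may be shared between them.

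The second gene, ENSGALG00000040582 (chr17:10543138-10636808, plus strand, 8 exon intervals), had no count in either HH25 DP library. It was at 2.97 and 4.34 CPM in HH10 negative, 12.7 and 33.3 in HH10 E2, 9.10 and 9.67 in HH18 negative, 31.9 and 24.7 in HH18 E2, 4.52 and 5.95 in HH18 DP, 4.98 and 5.35 in HH25 negative, and 10.5 and 12.8 in HH25 E2 cells. Every other library thus held it, most in E2 cells of HH10 and HH18. Against a floor of 3 counts over both HH25 DP libraries, or 0.0599 CPM, the median of the other 14 libraries was at least 157-fold higher. ENSGALG00000013862 (chr3:54871262-54872083, plus strand), at rank 10, likewise had no count in HH25 DP cells and ran from 1.42 CPM in HH10 negative library 1 to 52.2 CPM in HH18 E2 library 2, with a median at least 194-fold above the floor.

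No count was found in either HH25 DP library for 10 of the 100 genes. Of these, the next by their lowest group mean were ENSGALG00000010858, ENSGALG00000035945 and ENSGALG00000031144. ENSGALG00000010858 (chr7:18831986-18938041, plus strand) has 79 exon intervals and 14104 bases of exon. It ranged from 0 to 57.6 CPM in the other 14 libraries with a median of 3.88 CPM, at least 64.8-fold above the floor, and it was at 0 in HH25 negative library 1 and HH25 E2 library 2 as well. ENSGALG00000035945 (chr11:1257270-1260719) reached 6.93 CPM and ENSGALG00000031144 (chr4:4574010-4576392) 27.5 CPM, and both were at 0 in some other library. A value of 0 in HH25 DP cells for these 3 genes was therefore shared with single libraries of other groups. These floors cover counting error only.

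The genes at ranks 3 to 5 stood higher, and each also passed a test for a fall between stages in E2 cells, given with the other contrasts. ENSGALG00000040383 (chr4:10557676-10558846, plus strand, 1 exon interval) was at 3.32 and 1.71 CPM in HH25 DP cells, 33.3 and 16.9 in HH25 E2, 8.14 and 17.5 in HH25 negative, 69.2 and 31.7 in HH18 DP, 222 and 232 in HH18 E2, 108 and 59.8 in HH18 negative, 346 and 236 in HH10 E2, and 36.4 and 40.2 in HH10 negative cells. Its 3 HH25 groups were the lowest of all 8. ENSGALG00000011484 (chr2:40502114-40538476, plus strand, 4 exon intervals) was at 9.42 and 8.57 CPM in HH25 DP cells and at 25.3 to 128 CPM in the other libraries, with its lowest other value in HH25 E2 and its highest in HH10 E2 cells. ENSGALG00000013454 (chr27:3879443-3882191, plus strand, 2 exon intervals) was at 1.27 and 0.908 CPM in HH25 DP cells, 9.35 and 2.82 in HH25 E2, 9.53 and 8.74 in HH25 negative, and 172 and 164 in HH10 E2 cells. Its span lies inside that of ENSGALG00000041204, which is annotated on the opposite strand. Without a stated strand setting, reads of the pair could be shared where exons overlap, which was not checked.

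Those at ranks 6 to 9 were at 1.19 CPM or less in HH25 DP cells. ENSGALG00000044204 (chr10:13131918-13133662) was at 1.19 and 1.01 CPM there and between 4.61 and 9.65 CPM elsewhere, the narrowest range among the first 10 genes. ENSGALG00000030512 (chr19:5796052-5798325) was at 0.633 and 0.0267 CPM in HH25 DP cells and between 0.983 and 49.0 CPM elsewhere. ENSGALG00000013342 (chr7:5187307-5190674) was at 0.0792 and 0.187 CPM there and between 1.77 and 23.9 CPM elsewhere. ENSGALG00000030546 (chr14:8455910-8461828) was at 0 and 0.507 CPM there and between 1.79 and 80.0 CPM elsewhere. None of these 4 had an HH25 DP library that overlapped another group.

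**Figure D2:**
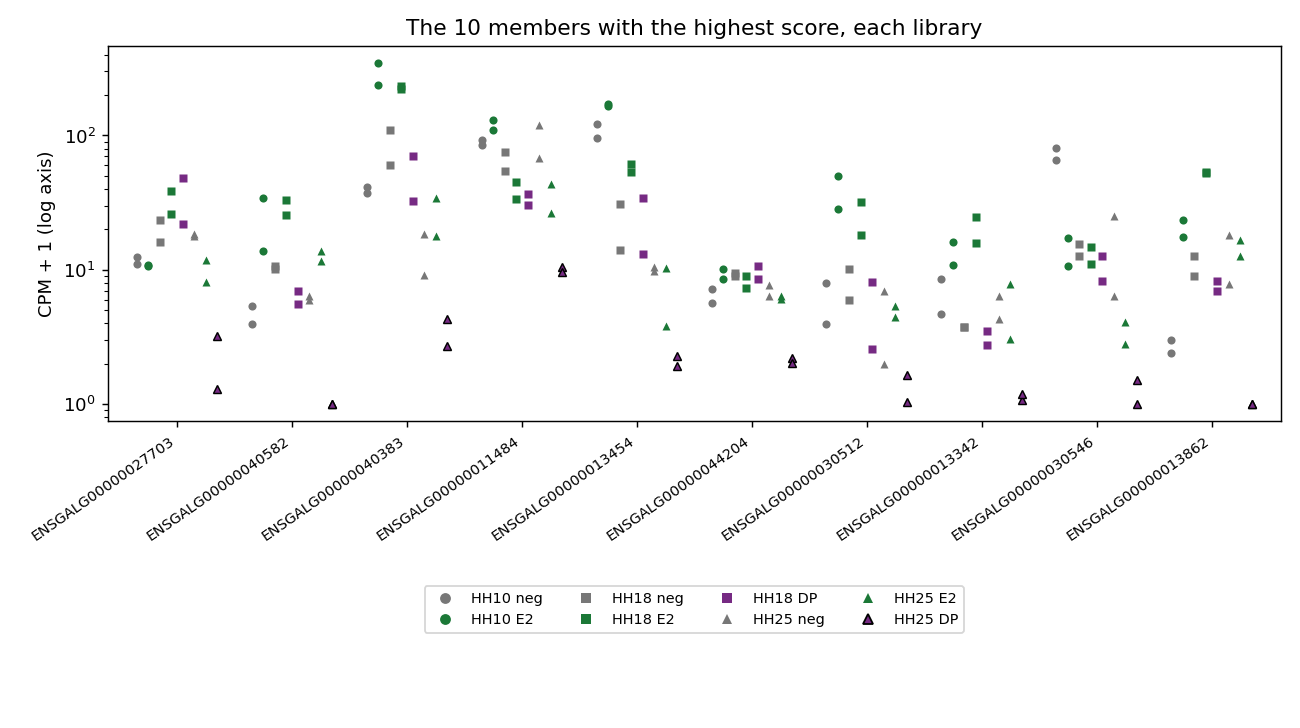
CPM + 1 on a log axis for the 10 genes with the highest score (horizontal axis), with 1 point per library; shapes mark stages, grey marks negative, green E2 and purple DP cells, and outlined triangles mark HH25 DP. The outlined triangles are the lowest points of every gene, and the other groups change order from gene to gene.

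Low counts did not make up the whole list. The mean of the 14 other libraries was at least 10 CPM for 80 of the 100 genes and at least 100 CPM for 15. In HH25 DP cells the group mean was under 1 CPM for 25 genes, 1 to 10 CPM for 42 and at least 10 CPM for 33. The most abundant gene outside HH25 DP was ENSGALG00000042894 (chr27:3167837-3172249, plus strand, 12 exon intervals), at 204 and 122 CPM in HH25 DP cells and a lowest, median and highest of 210, 411 and 1237 CPM in the other 14 libraries. It was followed by ENSGALG00000007484 (chr6:22131167-22134776, plus strand), at 167 and 140 CPM in HH25 DP cells and 236, 331 and 452 CPM elsewhere. Both stood below every other library, by margins much smaller than those of the first 10 genes: the median of the 14 was 2.52-fold and 2.16-fold the HH25 DP mean.

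Of the next abundant genes, ENSGALG00000040258 (chr30:14208-18128) was at 131 and 91.8 CPM in HH25 DP cells and 114, 271 and 358 CPM elsewhere, so 1 HH25 DP library lay above the lowest of the others. ENSGALG00000009309 (chr9:19797645-19802487) was at 74.9 and 111 CPM against 142, 223 and 384 CPM. ENSGALG00000012312 (chr1:51158258-51162538) was at 83.9 and 47.0 CPM against 86.3, 155 and 495 CPM, and ENSGALG00000012101 (chr5:55699101-55709296) at 81.6 and 58.7 CPM against 97.3, 151 and 269 CPM. The ratio of the median of the 14 to the HH25 DP mean was between 2.15 and 2.42 for these 4 genes.

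Pairs of listed genes that follow each other on a chromosome, with no tested gene between them, were found at 2 places. ENSGALG00000035882 (chr11:19136713-19151195, plus strand) and ENSGALG00000000632 (chr11:19157097-19158770, minus strand) are 5901 bases apart. ENSGALG00000000632 was at 56.6 and 43.6 CPM in HH25 DP cells and 78.4, 142 and 360 CPM in the others. ENSGALG00000028664 (chr25:1801173-1802313) and ENSGALG00000027700 (chr25:1801816-1808119) lie on the plus strand and overlap by 498 bases, so their counts may share reads and they are not independent members. ENSGALG00000028664 was at 53.8 and 27.8 CPM in HH25 DP cells and 49.0, 98.4 and 248 CPM elsewhere, with 1 HH25 DP library inside that range. In all, 22 of the 100 genes overlap the span of another gene, compared with 18.1% of the tested genes open to the rule.

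**Figure D3:**
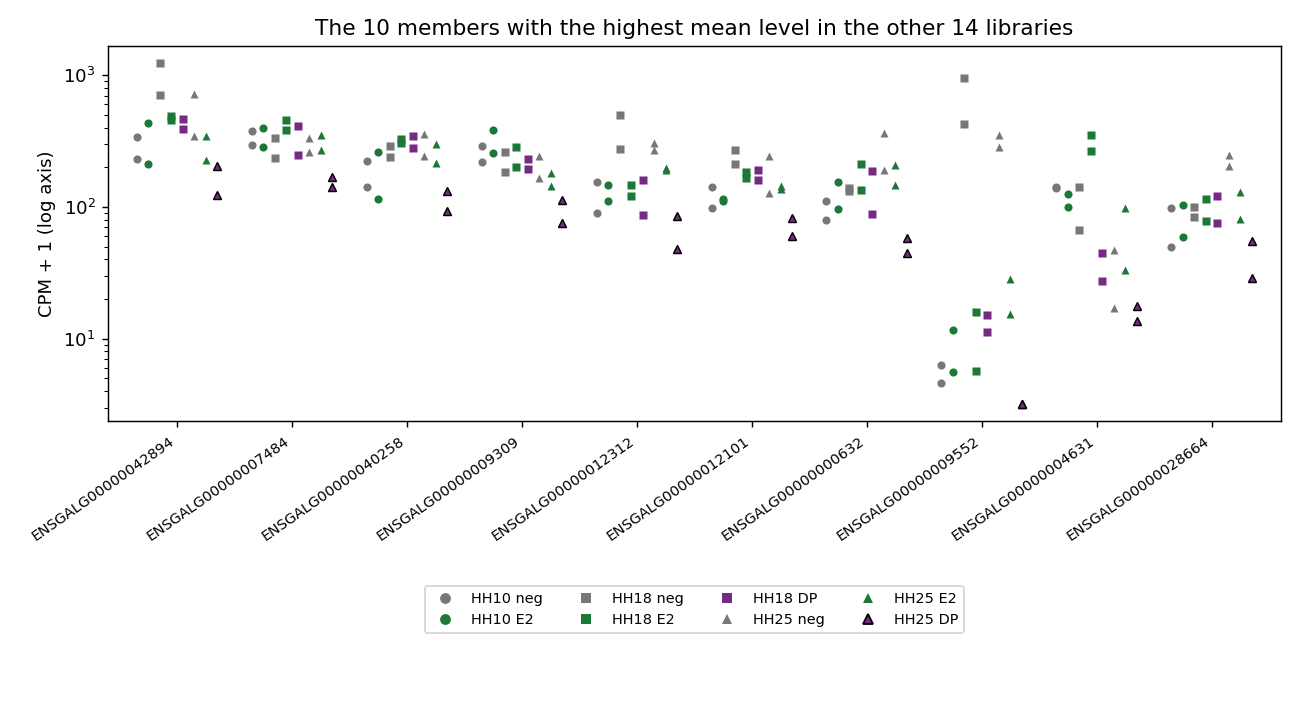
CPM + 1 on a log axis for the 10 listed genes with the highest mean level in the 14 libraries outside HH25 DP, with 1 point per library; shapes and colours mark stages and sorted populations, and outlined triangles mark HH25 DP. ENSGALG00000009552 and ENSGALG00000004631 spread most widely over the other groups, whereas ENSGALG00000007484 stays between 236 and 452 CPM outside HH25 DP.

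The rule used gene length only to leave out spans of 300 kb or more, which the tested genes compared here also lack, and below that limit the list had shorter genes. The median genomic span was 4.83 kb for the 100 genes and 11.4 kb for the 13775 tested genes open to the rule, with quartiles of 2.70 and 12.4 kb against 4.21 and 29.1 kb. A span under 5 kb was found for 53 of the 100 genes and for 28.7% of the tested genes, and a span of 50 kb or more for 10 genes and 14.5%. The median exon length in bases was 1474 against 1872, and the median number of exon intervals was 5 against 8. Single-exon genes were no commoner in the list, at 2 of 100 against 4.46%. These are descriptions over genes, which are not replicates, and were not tested.

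The shorter span was present at both levels of abundance. Among genes with at least 10 CPM in the other 14 libraries, 52.5% of the 80 listed genes and 21.7% of 7956 tested genes spanned less than 5 kb. Among those with less, the shares were 55.0% of 20 listed genes and 38.4% of 5819. By chromosome, 32 of the 100 genes lay on chromosomes 1 to 5, which hold 47.1% of the tested genes open to the rule. The list included 5 of 238 genes on chromosome 26, 5 of 294 on chromosome 17, and 11 of 2012 on chromosome 1. The plus strand held 52 of the 100 genes and 50.3% of the tested genes.

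Span also moved with the difference between HH25 DP cells and other groups across the table as a whole. In genes under 3 kb, the median difference was -0.24 on the log2(CPM + 1) scale against HH25 E2 cells and -0.53 against HH25 negative cells. In genes of 30 to 100 kb the same medians were 0.57 and 0.81. Against HH18 DP cells the median rose from -0.04 under 3 kb to 0.54 at 30 to 100 kb and 0.69 at 100 to 300 kb. The 2 HH25 DP libraries differed in this: against the mean of the other 7 groups, the median at 30 to 100 kb was 0.24 in library 2 and 0.82 in library 3, and at 100 to 300 kb 0.41 and 0.94, while under 3 kb it was -0.23 and -0.20. HH25 E2 minus HH25 negative cells had a smaller slope in the same direction, from -0.25 to 0.21 over the same 2 classes, while HH18 DP minus HH18 E2 cells stayed between -0.10 and -0.04 in all 5 classes. Contrasts of stages without DP cells also moved with span. In negative cells, HH25 against HH18 had a median log2 change of 0.66 in tested genes under 5 kb and -0.31 in longer ones. In E2 cells, HH18 against HH10 had 0.45 and -0.02. How far the negative cells shape the differences from HH25 DP was not tested. The list holds 29 of 2520 tested genes under 3 kb, 42 of 3902 at 3 to 10 kb, 17 of 4010 at 10 to 30 kb, 9 of 2553 at 30 to 100 kb and 3 of 790 at 100 to 300 kb. The part of this relation in the composition of the list was not tested.

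**Figure D4:**
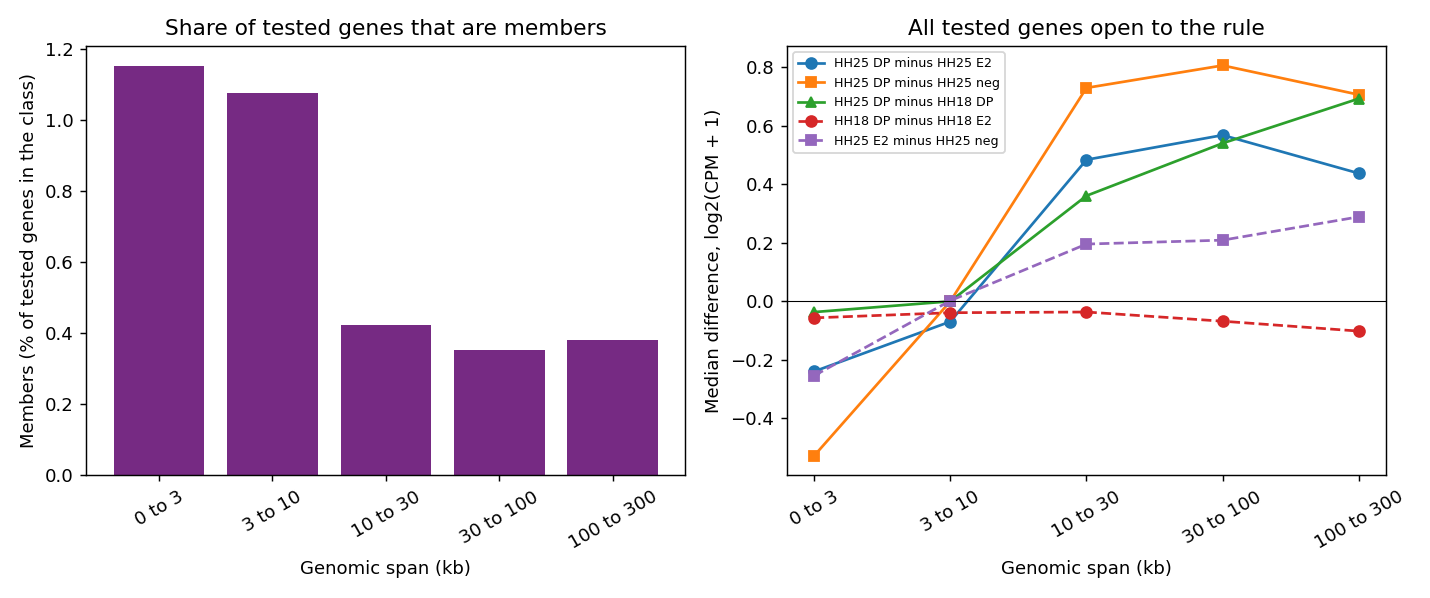
Left, listed genes as a percentage of the tested genes in each class of genomic span (kb); right, the median difference in log2(CPM + 1) between groups over all tested genes open to the rule in the same classes, with 1 line per pair of groups. The share of listed genes is higher in both classes under 10 kb, and the 3 solid lines for HH25 DP cells rise from below 0 under 3 kb to above 0 from 10 kb on, whereas the HH18 DP line stays near 0.

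Among the other 7 groups, the spread of the 100 genes was close to that of the table. The range of the 7 group means had a median of 1.76 on the log2(CPM + 1) scale, compared with 1.89 over the tested genes open to the rule, and extended from 0.31 to 7.26. It was under 1 in 16 genes, compared with 14.5% of the tested genes. These groups were compared with each other in 9 contrasts of group means that do not include HH25 DP, with edgeR's quasi-likelihood test and Benjamini-Hochberg adjustment over 14676 genes, calling a gene at an adjusted p below 0.05. The HH25 DP libraries still entered the filter on low counts and the shared estimate of the spread, and the score also uses the lowest of the 7 means, so these contrasts are not wholly independent of the choice of genes. No contrast called 86 of the 100 genes, 7 were called once and 7 in more than 1 contrast, which gave 30 calls in 14 genes. That is 3.33% of the 900 tests of listed genes, near the pooled 3.18% called over all genes in the same contrasts. Of those 4205 calls over all genes, 2170 came from negative cells at HH25 against HH18. There, and for E2 cells at HH18 against HH10, the listed genes had the lower share. In the other contrasts their share was the higher, from few calls each. These shares were not compared by a test. Only 5 of the 30 calls were kept when each library of the contrast was left out in turn, and 25 ended without at least 1 library.

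A small set of the genes was high in negative cells of HH18 and HH25 and low elsewhere. ENSGALG00000009552 (chr5:28954862-28959674, plus strand, 5 exon intervals) was at 5.32 and 3.61 CPM in HH10 negative and 4.59 and 10.7 in HH10 E2 cells, then at 424 and 948 in HH18 negative but 14.9 and 4.66 in HH18 E2 and 14.1 and 10.3 in HH18 DP cells. At HH25 it was at 283 and 350 CPM in negative, 14.5 and 27.5 in E2, and 2.22 and 2.19 in DP cells. The 4 negative libraries of HH18 and HH25 were at 283 CPM or more and no other library exceeded 27.5 CPM, and both HH25 DP libraries were the lowest of the 16. ENSGALG00000010219 (chr8:21007876-21011979, plus strand, 10 exon intervals) was at 122 and 239 CPM in HH18 negative and 87.1 and 98.7 in HH25 negative cells, between 11.8 and 21.5 CPM in the other 10 libraries, and at 9.97 and 5.66 CPM in HH25 DP cells. Its span overlaps ENSGALG00000010217 on the opposite strand. ENSGALG00000016287 (chr1:115909469-115911505, plus strand) was at 58.6 and 133 CPM in HH18 negative and 41.6 and 69.8 in HH25 negative cells, and at 2.77 and 1.41 CPM in HH25 DP cells.

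Between E2 and negative cells at HH18, 5 of the 100 genes passed, all lower in E2 cells, compared with 0.79% of all tested genes in either direction, 0.736% lower and 0.0545% higher. ENSGALG00000009552 fell by 6.28 on the log2 scale (SE 0.69, adjusted p = 4.36e-04, edgeR), with an adjusted p of at most 0.0078 when any 1 library was left out. ENSGALG00000010219 fell by 3.85 (SE 0.55, adjusted p = 0.0025), and its call ended without HH18 negative library 2 or HH18 E2 library 2 (highest adjusted p 0.074). ENSGALG00000029892 (chr5:18401703-18408406, minus strand) fell by 3.95 (SE 0.74, adjusted p = 0.021) and ENSGALG00000016287 by 3.65 (SE 0.71, adjusted p = 0.026). Both calls ended without HH18 negative library 2 or either E2 library, with adjusted p up to 0.28 and 0.43. ENSGALG00000023689 (chr17:6346895-6367468, plus strand, 15 exon intervals) fell by 2.88 (SE 0.52, adjusted p = 0.016), and its call ended without any 1 of the 4 libraries (adjusted p up to 0.21). Fewer listed genes, and fewer of all tested genes, passed without any 1 of the 4 libraries. Over all 100 genes the median difference had the opposite sign, 0.25, with 62 genes higher in E2 cells, compared with 0.01 and 50.6% of all tested genes.

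For DP against negative cells of HH18, 4 of the same 5 genes passed, again all lower, compared with 0.463% of all tested genes in either direction, 0.368% lower and 0.0954% higher. The changes were -5.95 for ENSGALG00000009552 (SE 0.68, adjusted p = 8.83e-04, edgeR), -3.57 for ENSGALG00000010219 (SE 0.54, adjusted p = 0.0067), -4.29 for ENSGALG00000029892 (SE 0.75, adjusted p = 0.019) and -3.74 for ENSGALG00000016287 (SE 0.71, adjusted p = 0.032). These comparisons share their negative libraries with those of E2 cells. Without HH18 negative library 2, DP library 1 or DP library 2, ENSGALG00000009552 was the only listed gene that passed. Fewer of all tested genes passed in these cases as well. ENSGALG00000023689 was the exception of the 5, at 80.6 and 168 CPM in HH18 DP cells, 65.7 CPM or more in HH18 negative and 13.9 and 10.9 in HH18 E2 cells. Over the list the median difference was -0.17, with 39 genes higher in DP cells, compared with 47.9% of all tested genes.

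Between DP and E2 cells at HH18, 2 of the 100 genes passed, 1 in each direction, compared with 0.368% of all tested genes, 0.273% higher and 0.0954% lower. DESeq2 called 1 higher and 7 lower, with 476 of all genes. ENSGALG00000023689 was higher in DP cells by 3.39 (SE 0.53, adjusted p = 0.011, edgeR), and the call ended without E2 library 1 or 2 or DP library 2. ENSGALG00000004631 (chr21:5645575-5657662, minus strand, 7 exon intervals) was lower by 3.08 (SE 0.60, adjusted p = 0.045), at 26.3 and 43.6 CPM in DP and 264 and 353 CPM in E2 cells, and the call ended without any 1 of the 4 libraries. Both calls thus ended without E2 library 1, E2 library 2 or DP library 2. At an unadjusted p below 0.05, the edgeR test of all 16 libraries held 15 listed genes and 1326 of the 14676 tested. The 100 genes as a whole had a median difference of -0.20, with 39 genes higher in DP cells, compared with 48.8% of all tested genes.

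**Figure D5:**
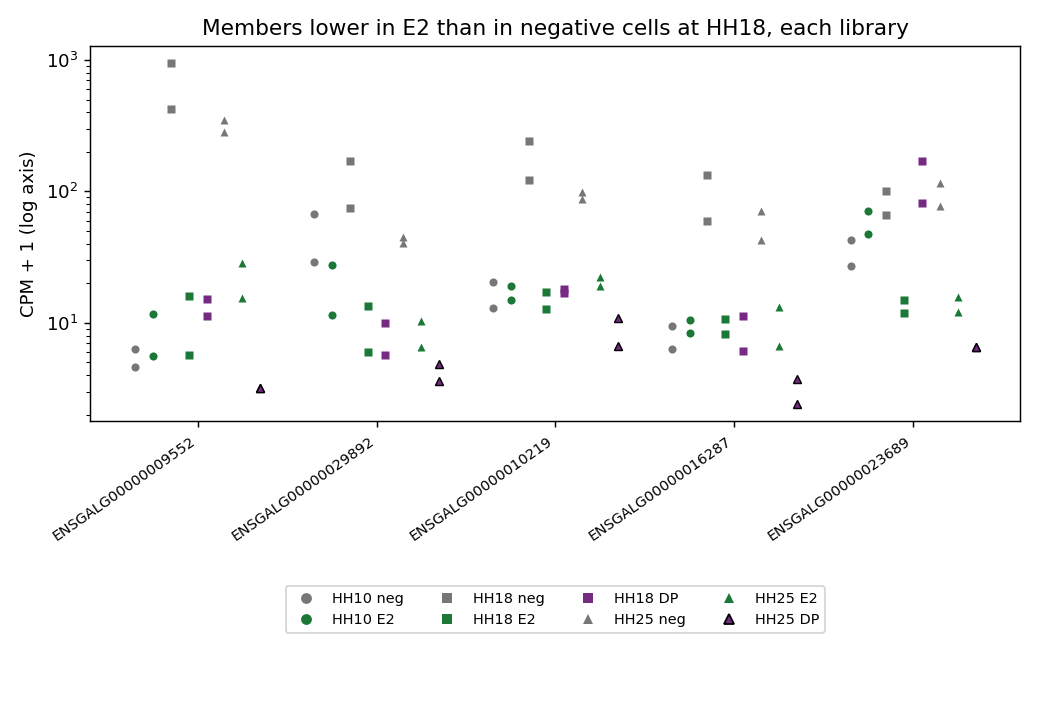
CPM + 1 on a log axis for the 5 listed genes lower in E2 than in negative cells at HH18, with 1 point per library; shapes and colours mark stages and sorted populations, and outlined triangles mark HH25 DP. Grey squares and grey triangles, the negative cells of HH18 and HH25, lie above all other libraries in 3 of the 5 genes, while ENSGALG00000023689 is also high in HH18 DP cells (purple squares).

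At HH25, E2 cells were below negative cells in 4 of the 100 genes, compared with 2.88% of all tested genes in either direction, 1.04% lower and 1.84% higher. ENSGALG00000009552 fell by 3.98 (SE 0.62, adjusted p = 0.0047, edgeR) and ENSGALG00000023689 by 2.96 (SE 0.52, adjusted p = 0.0080), and each of these calls ended without HH25 E2 library 1 (adjusted p 0.056 and 0.11). ENSGALG00000010219 fell by 2.30 (SE 0.51, adjusted p = 0.028) and ENSGALG00000016287 by 2.72 (SE 0.68, adjusted p = 0.049), and these calls ended without any 1 of the 4 libraries. Fewer listed genes, and fewer of all tested genes, passed without negative library 1 or either E2 library. Without negative library 2 the listed genes that passed were not all lower in E2 cells. Here the list as a whole leaned the same way: the median was -0.50 and 24 genes were higher in E2 cells, compared with 48.1% of all tested genes. Tested genes under 5 kb also had a negative median in this contrast, -0.34, whereas those of 5 kb or more had 0.08. Among the listed genes the median was -0.67 for the 53 under 5 kb and -0.42 for the other 47.

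At HH10, 3 of the 100 genes differed between E2 and negative cells, compared with 1.66% of all tested genes, 0.238% higher and 1.42% lower in E2 cells. ENSGALG00000040383 was higher in E2 cells by 2.93 (SE 0.54, adjusted p = 0.013, edgeR) and ENSGALG00000013862 by 3.50 (SE 0.72, adjusted p = 0.027). ENSGALG00000036593 (chr11:17590729-17592443, minus strand, 8 exon intervals) fell by 3.55 (SE 0.73, adjusted p = 0.025), at 31.3 and 57.2 CPM in negative, 2.09 and 5.50 in E2 and 1.98 and 1.52 in HH25 DP cells. None of the 3 passed without HH10 negative library 1 or without library 3. The call of ENSGALG00000036593 also ended without E2 library 1. With all 16 libraries, 14 listed genes and 1728 of the 14676 tested had an unadjusted edgeR p below 0.05. The median over the list was 0.21, with 66 genes higher in E2 cells, compared with -0.05 and 44.7% of all tested genes.

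Between stages, E2 cells of HH18 differed from those of HH10 in 3 of the 100 genes, compared with 4.84% of all tested genes, 3.8% higher and 1.04% lower. DESeq2 called 7 higher and 3 lower, with 2181 of all genes, where edgeR called 1 higher and 2 lower. ENSGALG00000003554 (chr26:5176853-5180319, plus strand, 8 exon intervals) rose by 2.21 (SE 0.49, adjusted p = 0.019, edgeR), from 21.7 and 41.0 CPM to 146 and 134 CPM. ENSGALG00000023689 fell by 2.21 (SE 0.50, adjusted p = 0.021) and ENSGALG00000011484 fell by 1.59 (SE 0.42, adjusted p = 0.042). Each call ended without at least 3 of the 4 libraries. All 3 calls ended without HH18 E2 library 1 or 2. With all 16 libraries, 16 listed genes and 3348 of the 14676 tested had an unadjusted edgeR p below 0.05. The list had a median of 0.31, with 67 genes higher at HH18, compared with a median of 0.08 and 52.0% of all tested genes. Tested genes under 5 kb had a median of 0.45 here, and the 53 listed genes under 5 kb had 0.36. For 5 kb or more, the medians were -0.02 over tested genes and 0.17 over the 47 listed.

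From HH18 to HH25, E2 cells changed in 2 of the 100 genes, both lower, compared with 0.429% of all tested genes in either direction, 0.157% lower and 0.273% higher. ENSGALG00000040383 fell by 3.17 (SE 0.55, adjusted p = 0.026, edgeR) and ENSGALG00000013454 by 3.21 (SE 0.63, adjusted p = 0.046), and so both genes fell in cells without NC2 signal. Neither call was kept without HH18 E2 library 1 or 2 or HH25 E2 library 2. With all 16 libraries, 14 listed genes and 1572 of the 14676 tested had an unadjusted edgeR p below 0.05. The list had a median of -0.33, with 34 genes higher at HH25, compared with 47.8% of all tested genes.

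Negative cells rose from HH10 to HH18 in 3 of the 100 genes, compared with 2.44% of all tested genes in either direction, 1.96% higher and 0.477% lower. They were ENSGALG00000009552 (7.44, SE 0.73, adjusted p = 6.3e-05, edgeR), ENSGALG00000016287 (3.98, SE 0.72, adjusted p = 0.0074) and ENSGALG00000010219 (3.69, SE 0.54, adjusted p = 0.0017), the same genes that stood high in later negative cells. The first and the last were kept when each library was left out in turn. ENSGALG00000016287 ended without HH10 negative library 1 or 3 or HH18 negative library 2. More listed genes passed without HH18 negative library 1 and fewer without any other, while fewer of all tested genes passed in each case. The median over the list was 0.53, with 70 genes higher at HH18, compared with 47.4% of all tested genes. By span, it was 0.69 for the 53 listed genes under 5 kb and 0.17 for the other 47, against 0.23 and -0.17 over tested genes.

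Between HH18 and HH25, negative cells differed in 4 of the 100 genes, 1 higher and 3 lower, compared with 14.8% of all tested genes, 5.32% higher and 9.46% lower. The median over the list was 0.11, with 55 genes higher at HH25, compared with -0.04 and 47.4% of all tested genes. It was 0.01 for the 53 listed genes under 5 kb, against 0.66 over tested genes of that span, and 0.15 for the other 47, against -0.31. DESeq2 called 10 higher and 3 lower, with 3663 of all genes. ENSGALG00000012123 (chr5:5201971-5218801, minus strand, 13 exon intervals) fell by 4.27 (SE 1.15, adjusted p = 0.025, edgeR), from 61.1 and 29.0 CPM to 0 and 5.24 CPM. Its call ended without HH18 negative library 1 (adjusted p = 0.10). The fitted change was -3.25 without HH25 negative library 1 and -12.98 without HH25 negative library 2, the latter set against the 1 library at 0 and so no measure of size. It stood at 357 and 288 CPM in HH10 E2 and at 0 and 0.107 CPM in HH25 DP cells, so that its lowest values were spread over HH25 groups. ENSGALG00000040383 fell by 2.78 (SE 0.54, adjusted p = 0.0057), which was kept when each library was left out, and ENSGALG00000004631 by 1.81 (SE 0.57, adjusted p = 0.048). ENSGALG00000038667 (chr32:11859-12566, minus strand, 3 exon intervals) rose by 1.69 (SE 0.44, adjusted p = 0.022), from 67.7 and 67.0 CPM to 285 and 165 CPM, while HH25 DP cells held 39.7 and 33.0 CPM. The calls of ENSGALG00000004631 and ENSGALG00000038667 ended without HH18 negative library 1 or 2 or HH25 negative library 1. That of ENSGALG00000004631 also ended in edgeR with DESeq2 size factors (adjusted p = 0.055), with library number as a block (0.064) and with only the 4 libraries compared (0.11). The call of ENSGALG00000038667 was kept in these settings. Without HH25 negative library 2 the change of ENSGALG00000004631 was -2.75, and without HH25 negative library 1 that of ENSGALG00000038667 was 1.12. Fewer listed genes passed without HH18 negative library 1 or 2 or HH25 negative library 1, and more without HH25 negative library 2. The number over all tested genes moved the same way in each case.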

How the data were processed

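Total RNA of FACS-sorted cells, kept only at a RIN above 6 per the labels' protocols, was made into libraries with SMART-Seq v4 and Nextera XT and read as 40 bp pairs. The authors deposited raw read counts per gene. Per the submitters' processing notes, galGal5 was the build, and STAR 2.4.2a, featureCounts, Subread 1.4.5 and DESeq2 were used. How strand and multiply matching reads were handled is not given in the sources used here, so overlapping genes may share reads.

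Columns were matched to groups by name, since the numbers in the column names of some groups differ from those in the titles. CPM used column sums, and log2 levels a pseudocount of 1. Tests used edgeR 4.0.16 in R 4.3.3 (quasi-likelihood, TMM, filterByExpr, 14676 genes, 1 fit of all 16 libraries with 8 residual degrees of freedom). DESeq2 1.42.0 was an alternative. The code of the edgeR test was run on simulated data for HH25 E2 against negative cells only. The choice of genes and the other contrasts were not covered by that run. The members and lists were chosen with earlier results of these data known. Genes were named by these parts: the 10 highest scores, the 10 most abundant, the called extremes of each comparison, the 3 genes on each side of the cutoff, 5 genes with no count in HH25 DP cells, and neighbouring members. Other called genes were named after their values were seen. Marker lists could not be applied for want of gene names. Library totals limit the precision: 1 count is a larger share in the shallowest library. No molecular identifiers were used, so floors cover counting error only.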

Additional observations from a re-analysis of the deposited data

Results flagged for a closer look

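The difference between E2 and negative cells was called as changing between stages for 3 of the 100 genes. This was an edgeR quasi-likelihood test of the difference between contrasts, adjusted over all tested genes, chosen after seeing the data. It called 3 of the 100 genes and 0.804% of all tested genes for HH18 against HH10. For HH25 against HH10 it called 2 of the 100 and 1.94%, which are near each other when both directions are counted. All of these listed calls were negative. Over all genes, 74 calls were positive and 44 negative for HH18 against HH10, and 235 and 49 for HH25 against HH10. These shares were not compared by a test, and the listed calls were few. For ENSGALG00000009552, E2 minus negative was lower at HH18 than at HH10 by a difference of -7.04 on the log2 scale (SE 0.87, adjusted p = 0.0014), and at HH25 than at HH10 by -4.74 (value -4.735, SE 0.83, adjusted p = 0.012). For ENSGALG00000023689 the same differences were -3.65 (SE 0.70, adjusted p = 0.024) and -3.73 (SE 0.70, adjusted p = 0.017). For ENSGALG00000010219 it was -3.85 (SE 0.71, adjusted p = 0.021) at HH18 against HH10. Between HH25 and HH18, edgeR called 0 of the 100 genes and 3 of 14676 in all. At an unadjusted p below 0.05 it held 9 listed genes and 1529 of the 14676. The list had a median of -0.65 in this difference, with 22 genes above 0, compared with 0.01 and 50.2% of all tested genes. For HH25 against HH10 the median was -0.79 with 21 genes above 0, compared with 0.20 and 55.1%. For HH18 against HH10 it was -0.13 with 44 genes above 0, compared with 0.10 and 54.8%. These medians were not tested. DESeq2 was not run for these differences. Libraries were not left out in turn for any of these differences. In the contrast of E2 and negative cells at HH18, the calls of ENSGALG00000023689 and ENSGALG00000010219 each ended without some single libraries.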

How the results depend on the processing

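No call reversed under any setting run. The choice of genes depended on the settings: 54 of the 100 genes stayed in the list with a pseudocount of 0.1, 63 with 5, 91 with TMM scaling, and 28 when the median of the other 7 groups replaced their lowest; without HH25 DP library 3 or 2 it was 43 or 59, and 82 to 98 without another library. The median score was then 0.99, 0.60, 0.89 and 1.51, and 0.79 to 0.94 with libraries left out. The count with both HH25 DP libraries below the rest was 62 to 66 with other libraries left out. DESeq2 called 12 listed genes (7 higher, 5 lower) and 875 of all genes for HH10 E2 against negative. The same pair gave 12 (3 and 9) and 486 at HH18, and 13 (0 and 13) and 1492 at HH25. For HH18 DP against E2 it called 8 (1 and 7) and 476. In E2 cells it called 10 (7 and 3) and 2181 at HH18 against HH10, and 6 (0 and 6) and 540 at HH25 against HH18. In negative cells the same contrasts gave 18 (12 and 6) and 1106, and 13 (10 and 3) and 3663. With only the 4 libraries compared, the counts for E2 against negative were 0 (16 unadjusted) at HH10, 15 at HH18 and 1 at HH25. The 15 were 5 higher and 10 lower in E2 cells, and the 1 was lower. Of all genes, 0, 677 and 64 were called. HH18 DP against E2 gave 0 (16 unadjusted), with 39 of all genes. E2 HH18 against HH10 gave 0 (19 unadjusted), with 28 of all genes. Negative HH18 against HH10 gave 29 (19 higher and 10 lower), with 1955 of all genes. Without a low-count filter the last was 7 (5 higher and 2 lower), with 473 of all genes. With a library of the contrast left out, the number of listed genes called fell or held in most cases. It rose only in negative cells: without HH18 negative library 1 for HH18 against HH10, and without HH25 negative library 2 for HH25 against HH18. The number over all tested genes fell in the former and rose in the latter. Whether same-numbered libraries share more than a number is not said, and their deviations correlated by -0.13 to 0.28. The replicate block gave 1 call for HH18 DP against E2. A crossed pairing, added after seeing the data where correlations were -0.12 and -0.13, gave 1 and 2 calls.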
